A study of Homo sapiens with 2 samples.

Results

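The transcripts described here encode the albumin family and the liver-made proteins that carry hormones, vitamins, iron and heme in plasma. They were chosen by gene name, with earlier results of these data known: ALB, AFP, AFM, GC, TTR, RBP4, TF, HPX, SERPINA6 and SERPINA7, 10 of the 19927 gene rows of the count table. All 10 had a row and all 10 were kept by a filter of 1 CPM (the count scaled to library size in the usual way) in at least 1 library, among 12540 genes kept. Gene expression was measured by sequencing polyadenylated RNA from Huh7, an established human hepatocellular carcinoma cell line. The shControl culture carried a control hairpin and has the genotype label WT, and the shPPIL1 culture carried 1 short hairpin RNA against PPIL1 and has the genotype label PPIL1 knockdown. Both were grown in DMEM with fetal bovine serum. PPIL1 is a cyclophilin-type prolyl isomerase of the spliceosome. Each group was 1 library from 1 cell line, so no difference below has a replicate check and no p-value is given. Ratios are shPPIL1 over shControl, "higher" and "lower" refer to shPPIL1, and each interval is an exact 95% interval for counting error alone. It takes no account of differences between cultures or of PCR duplicates, which were not marked by molecular identifiers.

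Plasma carriers bind molecules that are poorly soluble or reactive in free form and bring them from the liver, or from stores, to the tissues that use them. Hepatocytes make nearly all of those considered here, and hepatocyte nuclear factors and C/EBP proteins are the textbook regulators of their genes. AFP is a main plasma protein of the early fetus, is largely silenced after birth and is made again by many hepatocellular carcinomas.

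Counted reads came to 41015345 in shControl and 41165401 in shPPIL1, and 15589 and 15657 genes had at least 1 read. PPIL1, on the minus strand of chromosome 6 (GRCh38, 36854829 to 36874803), had 1505 reads in shControl and 104 in shPPIL1, a ratio of 0.0679 (0.0551 to 0.0829), the direction of the labels. All 9 hepatocyte markers outside the members (HNF4A, APOA1, APOA2, APOB, APOH, FGA, FGB, FGG and SERPINA1) were detected, with summed levels of 6645 CPM in shControl and 7306 CPM in shPPIL1. The endothelial markers summed to 10.5 and 8.84 CPM with KDR at 0 in both libraries and PECAM1 nearly all of the sum (410 and 352 reads, ratio 0.844, 0.729 to 0.975), the immune markers to 34.5 and 33.0 CPM with CD68 the largest part, and the stellate cell markers to 47.9 and 49.8 CPM with COL1A2 at 0. LUM, with 1512 and 1508 reads, made up most of the stellate cell sum, and COL3A1 had 16 and 48 reads, a ratio of 2.95 (1.64 to 5.56), and was kept through shPPIL1 alone. The part of these markers in the results below was not tested. Of the cholangiocyte markers KRT7 was at 0, while EPCAM, KRT19, SOX9 and SPP1 were expressed, and the list summed to 907 and 886 CPM. By the interval KRT19 (0.907, 0.878 to 0.937), SOX9 (0.830, 0.804 to 0.856) and SPP1 (0.856, 0.782 to 0.937) were lower. EPCAM was higher (1.05, 1.03 to 1.07), and the median log2 ratio of the 5 kept markers was -0.14. Cells were measured in bulk, so a change in the number of cells expressing a gene cannot be told apart from a change in RNA per cell.

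The albumin genes and several of the carriers share letters upstream of their start sites. On either strand the hexamer GTTAAT lay in the 250 bases before the start in 5 of the 11 start windows that RefSeq (GRCh38.p14) gives for the members, against 6.23% of 35116 windows of the same length over all genes. The windows were those of ALB, AFP, AFM, SERPINA6 and SERPINA7. Windows were given for 8 of the 10 members, with more than 1 each for RBP4 and TF and none for GC and TTR. The 5 windows belong to albumin family genes and to serpins, so they are not separate instances. Base composition was not compared with that of all windows. The 5 stretches below are shown because they share a hexamer while the levels of their genes, given below, differ by up to 4553-fold. Each is the 150 bases that end just before the start, 5′ to 3′ on the gene's strand, with GTTAAT or its reverse complement ATTAAC in capitals.
ALB, chr4:73404137-73404286, plus strand: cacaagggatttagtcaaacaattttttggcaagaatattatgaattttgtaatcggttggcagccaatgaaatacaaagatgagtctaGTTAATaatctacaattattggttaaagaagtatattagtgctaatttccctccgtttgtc
AFP, chr4:73436071-73436220, plus strand: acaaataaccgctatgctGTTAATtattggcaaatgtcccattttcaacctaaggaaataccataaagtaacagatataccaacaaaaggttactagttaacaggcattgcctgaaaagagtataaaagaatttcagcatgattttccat
AFM, chr4:73481595-73481744, plus strand: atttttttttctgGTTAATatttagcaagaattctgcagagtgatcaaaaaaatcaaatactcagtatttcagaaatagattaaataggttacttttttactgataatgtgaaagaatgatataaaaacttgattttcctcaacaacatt
SERPINA6, chr14:94323337-94323486, minus strand: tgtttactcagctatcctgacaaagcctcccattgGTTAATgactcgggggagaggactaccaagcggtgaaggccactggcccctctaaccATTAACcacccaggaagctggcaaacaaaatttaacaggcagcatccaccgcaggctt
SERPINA7, chrX:106038728-106038877, minus strand: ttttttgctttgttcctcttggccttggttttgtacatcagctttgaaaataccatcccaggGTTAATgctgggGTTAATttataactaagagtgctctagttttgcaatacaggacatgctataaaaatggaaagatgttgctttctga
In ALB the motif began 61 bases before the start, in AFP 132 and in AFM 137. SERPINA6 held 3 copies within the 250 bases (170, 115 and 58 before the start, the first of them outside the printed stretch and the last on the opposite strand) and SERPINA7 held 2 (88 and 76). TTNNGCAA, a C/EBP-type motif, lay in 7 of the 11 windows (those of ALB, AFP, AFM, RBP4, TF, HPX and SERPINA7), against 9.05% over all genes. TATAAA lay in 5 of the 11, in AFP, AFM, RBP4 and SERPINA7 (10.7% over all genes), CCAAT in 6 (32.0%), the forkhead motif TGTTTNC in 2 (15.5%) and CAAAGTCC, part of the HNF4 motif, in 0 (1.02%). All motifs were searched on both strands. Some matches share bases: the C/EBP-type match of TF with its CCAAT, 1 GTTAAT match of SERPINA6 with its CCAAT, and 1 GTTAAT match of SERPINA7 with the more distant TATAAA match. A match is a description of letters and shows no binding.

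Levels of the 10 transcripts spanned more than 3 orders of magnitude. On the authors' FPKM scale (fragments per kilobase of gene length, scaled to the library total), AFP stood at 4564 in shControl and 4612 in shPPIL1, and ALB at 3203 and 3270. AFP held rank 3 among all gene rows in shControl and rank 4 in shPPIL1, and ALB held rank 7 in both. RBP4 followed at 465 and 473 FPKM, then TTR at 175 and 185, TF at 68.8 and 64.8, SERPINA6 at 42.1 and 46.5 and GC at 24.1 and 28.1. HPX stood at 2.18 and 2.93, AFM at 1.00 and 1.47, and SERPINA7 at 1.00 and 0.858. On this scale the order of the 10 was the same in both libraries. Each neighbour in that order was separated by its counting interval in both libraries, except AFM and SERPINA7 in shControl, where 66 and 71 reads gave overlapping intervals (0.777 to 1.28 and 0.783 to 1.26 FPKM). The plot of levels shows 2 groups of members, 7 from GC upward and 3 near 1 to 3 FPKM, with an 11.05-fold step between GC and HPX in shControl.

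**Figure D1:**
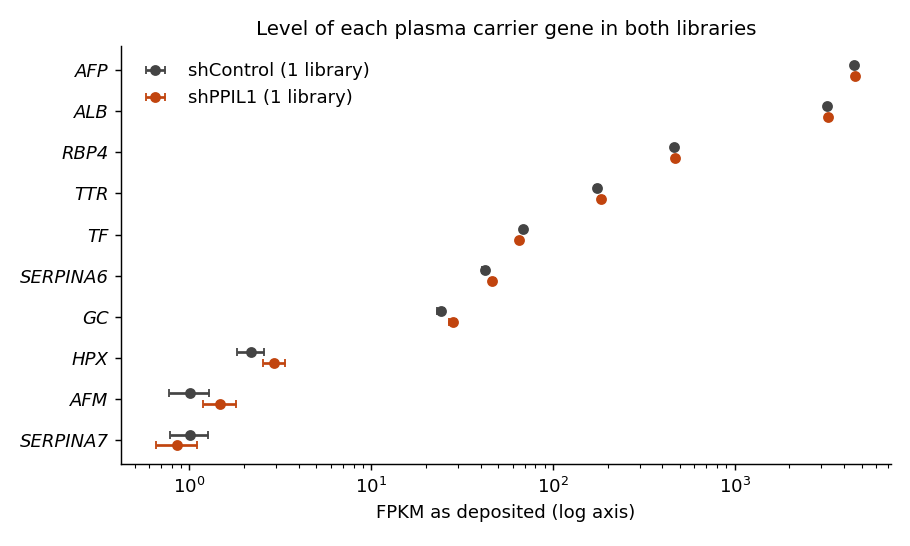
FPKM as deposited (log axis) of each gene in shControl (grey) and shPPIL1 (orange), 1 library each, with bars for the exact 95% Poisson interval of the reads. The order of the genes is the same in both libraries, from AFP at 4564 and 4612 FPKM to SERPINA7 at 1.00 and 0.858 FPKM.

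Together the 10 genes took 827394 reads, or 2.02% of the shControl library (exact 95% interval 2.01 to 2.02%), and 839269 reads, or 2.04% of the shPPIL1 library (2.03 to 2.04%). ALB and AFP made up most of that, with 1.81% (1.80 to 1.81%) and 1.83% (1.83 to 1.84%). The 8 others took 0.211% and 0.205%. Most of this was TF, with 0.141% and 0.132%.

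None of the 10 had a measured ratio of 1.5-fold or more in either direction. The intervals of AFM (1.05 to 2.01), HPX (1.06 to 1.66) and SERPINA7 (0.590 to 1.21) reached beyond 1.5-fold. A difference of that size is therefore not excluded for these genes. Of all 12540 kept genes, 2.02% were higher by 1.5-fold or more with an interval excluding 1, and 2.22% were lower by that much. At shares this small, the lack of such a gene among 10 does not set the members apart. By the interval alone, at any size of difference, 5 members were higher (ALB, AFM, GC, HPX and SERPINA6), 1 was lower (TF) and 4 had an interval including 1 (AFP, TTR, RBP4 and SERPINA7). Of all kept genes, 24.6% were higher and 26.4% lower by that rule, which follows depth as well as difference. The median log2 ratio of the 10 was 0.03, that of all kept genes -0.0017, and the middle 50% of all kept genes ran from -0.13 to 0.12. The plot of ratios sets the members against that band.

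**Figure D2:**
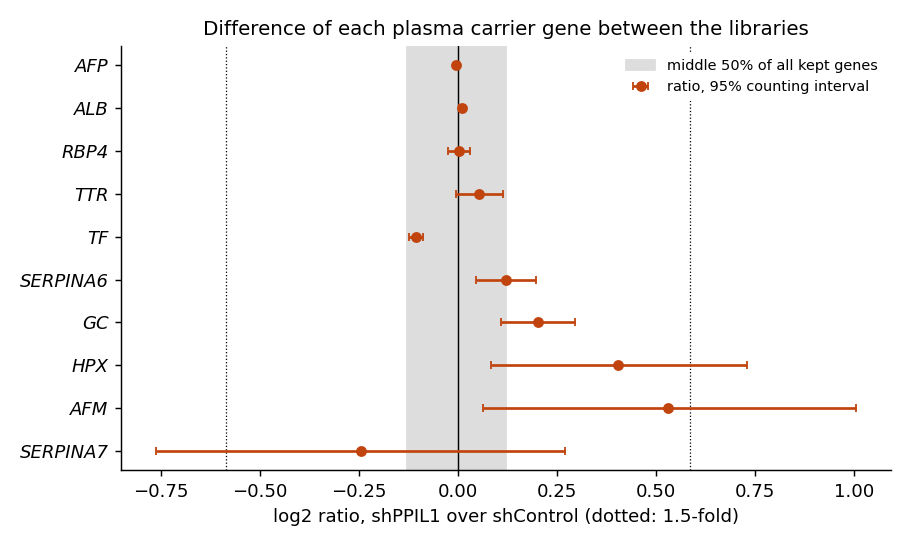
Log2 ratio of each gene, shPPIL1 over shControl, with the 95% counting interval. The grey band is the middle 50% of all kept genes (-0.13 to 0.12) and dotted lines mark 1.5-fold. The ratios of AFP, ALB, RBP4, TTR, TF and SERPINA6 lie within the band. No ratio lies beyond a dotted line, while the intervals of AFM, HPX and SERPINA7 cross a dotted line.

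Of the albumin family, the 2 abundant members were nearly level and the 2 rarer ones were higher. ALB, the main protein of adult plasma and a carrier of fatty acids, bilirubin and drugs, had 300164 reads in shControl and 307552 in shPPIL1. Its ratio was 1.007 (1.002 to 1.012), and 4.60% of kept genes had a smaller change. AFP, its fetal counterpart, had 440798 and 447153 reads. The AFP ratio was 0.997 (0.993 to 1.001). That value lies on the lower side with the TMM scaling used here, and on the higher side, at 1.011 (1.006 to 1.015), when libraries are scaled by their totals alone. The scalings move all genes by 0.02 on the log2 scale or less, which is more than the counting error of these 2 genes. AFP exceeded ALB per length by 1.42-fold in shControl and 1.41-fold in shPPIL1, a ratio that does not depend on scaling. It changed by a factor of 0.990 (0.984 to 0.997, counting error on the log scale).

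AFM, afamin, a vitamin E-binding protein that also carries Wnt proteins, had 66 reads in shControl and 97 in shPPIL1. The AFM ratio was 1.44 (1.05 to 2.01), the largest of the 10, on the fewest reads of the 10 in shControl, and 94.5% of kept genes had a smaller change. ALB exceeded AFM per length by 3189-fold in shControl and 2223-fold in shPPIL1. GC, the vitamin D-binding protein, which also binds free actin, had 1697 and 1986 reads, a ratio of 1.15 (1.08 to 1.23). Of kept genes, 68.8% had a smaller change than GC.

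ALB, AFP and AFM lie in a row on the plus strand of chromosome 4 (GRCh38), at 73404287 to 73421482, 73436221 to 73456174 and 73481745 to 73504001, with 14739 bases between ALB and AFP and 25571 between AFP and AFM. Each has 15 exons in its principal GENCODE transcript. GC lies on the minus strand of the same chromosome, at 71741693 to 71805520. The genes flanking this row stood far below ALB and AFP. ANKRD17, beyond ALB, stood at 11.9 and 12.6 FPKM (ratio 1.05, 1.00 to 1.09), and RASSF6, beyond AFM, at 2.32 and 2.09 FPKM (ratio 0.891, 0.788 to 1.01). AFP exceeded its neighbour AFM 4543-fold per length in shControl.

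The vitamin A carriers were close to level. RBP4 binds retinol and leaves the liver in a complex with TTR, which also carries thyroxine and keeps the small RBP4 from being lost in urine. RBP4 had 19677 reads in shControl and 20056 in shPPIL1, a ratio of 1.00 (0.982 to 1.02). TTR had 4434 and 4684 reads, and its ratio was 1.04 (0.996 to 1.08). The level of RBP4 over that of TTR was 2.65 in shControl and 2.56 in shPPIL1, a change by a factor of 0.965 (0.922 to 1.01). RBP4 lies on the minus strand of chromosome 10, from 93591694 to 93601744, and overlaps FFAR4 on the opposite strand in GENCODE. FFAR4 had 33 and 37 reads, and the strand setting of the counting is not given in the sources used here. TTR lies on the plus strand of chromosome 18, from 31591877 to 31598821.

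The iron and heme carriers differed in opposite directions by the interval. TF, transferrin, which delivers ferric iron to cells through the receptor encoded by TFRC, had 57644 reads in shControl and 54499 in shPPIL1. Its ratio was 0.929 (0.918 to 0.940), or 1.08-fold lower, on the lower side under every scaling tried, and 44.0% of kept genes had a smaller change. HPX, hemopexin, which binds free heme and is taken up through LRP1, had 141 and 190 reads, and its ratio was 1.32 (1.06 to 1.66). The level of TF over that of HPX went from 31.5 to 22.1, a change by a factor of 0.702 (0.564 to 0.873). TF lies on the plus strand of chromosome 3, from 133661998 to 133796641 in RefSeq, and HPX on the minus strand of chromosome 11, from 6431049 to 6440987.

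The FPKM of TF rests on an unusual length. Dividing the TF count by the library total and the FPKM gives a gene length of 20431 bases, against 616 to 2355 bases for the 9 other members. The coding sequence of TF is 2094 bases, and its principal GENCODE transcript of 20602 bases ends in a last exon of 18055 bases. That exon reaches into SRPRB, a gene on the same strand that encodes a subunit of the signal recognition particle receptor, and shares 112 bases with SRPRB exons. Exact 100-base matches to transcripts of other genes took up 1.17% of the windows of TF and 0% of those of the other members. SRPRB had 4363 and 4166 reads, a ratio of 0.938 (0.899 to 0.979), near that of TF. How reads from the overlap were counted is not given in the sources used here, and its part in the TF ratio was not tested. Per kilobase of coding sequence TF stood at 671 in shControl, 9.76 times its FPKM, and moved from place 5 to place 4 among the members, between RBP4 at 796 and TTR at 245. The plot by length shows that the other members moved by a factor of 1.71 or less. With this length AFM (66 reads) and SERPINA7 (71 reads) also changed places in shControl, with AFM at 0.895 and SERPINA7 at 1.39. In shPPIL1 they did not, with AFM at 1.31 and SERPINA7 at 1.19. Counting intervals were not computed for these levels, so the order of AFM and SERPINA7 by coding length is uncertain.

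**Figure D3:**
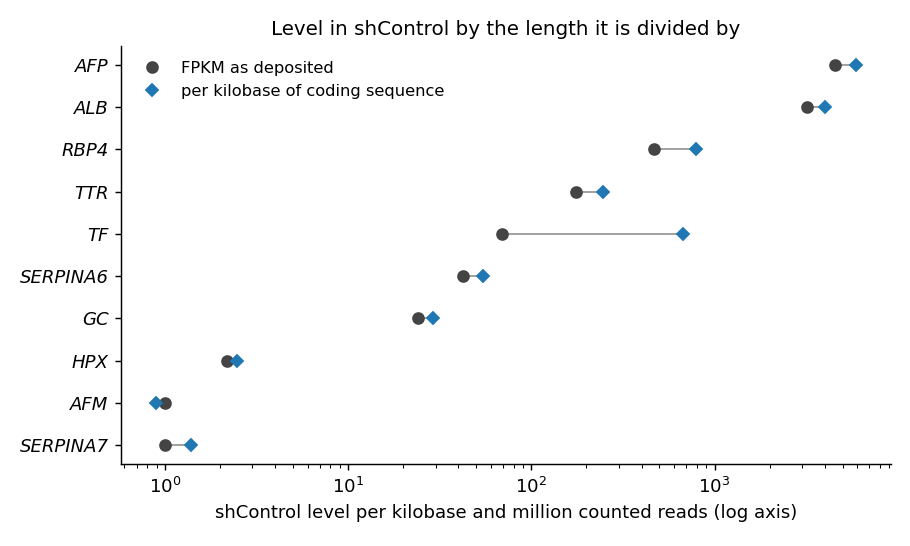
Level in shControl per kilobase, scaled to the library total as FPKM are (log axis), by the length behind the deposited FPKM (circles) and by coding length (diamonds). TF moves from 68.8 to 671, and the other genes shift far less.

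Of the hormone-binding serpins, SERPINA6 was higher and SERPINA7 had an interval including 1. SERPINA6, transcortin, is a serpin that carries cortisol, and SERPINA7 is the thyroxine-binding globulin, encoded on the minus strand of chromosome X (106032435 to 106038727). Neither acts as a protease inhibitor. SERPINA6 had 2702 reads in shControl and 2991 in shPPIL1, a ratio of 1.09 (1.03 to 1.15). SERPINA7 had 71 and 61 reads, a ratio of 0.844 (0.590 to 1.21). At this depth a difference of the size of SERPINA7's was not detectable: with 60 reads in both libraries the interval reaches 1.45-fold, and with 1000 reads 1.09-fold. SERPINA6 exceeded SERPINA7 per length by 42.0-fold in shControl and 54.2-fold in shPPIL1, a change by a factor of 1.29 (0.911 to 1.82). SERPINA6 sits on the minus strand of chromosome 14, from 94304248 to 94323336, between SERPINA10 and SERPINA1. Per length SERPINA1, alpha-1-antitrypsin, stood at 600 and 647 FPKM, with a ratio of 1.06 (1.05 to 1.07), and SERPINA10 at 2.16 and 2.25 FPKM, with a ratio of 1.03 (0.900 to 1.17).

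The more abundant members lay closer to equal expression. The 5 members at 100 CPM or more (AFP, ALB, TF, RBP4 and TTR) had log2 ratios from -0.11 to 0.05. Those under 5 CPM (HPX, AFM and SERPINA7) had log2 ratios from -0.24 to 0.53. The plot of all kept genes shows the same narrowing. At 100 CPM or more, 0 genes were 1.5-fold higher and 12 of 2449 were 1.5-fold lower.

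**Figure D4:**
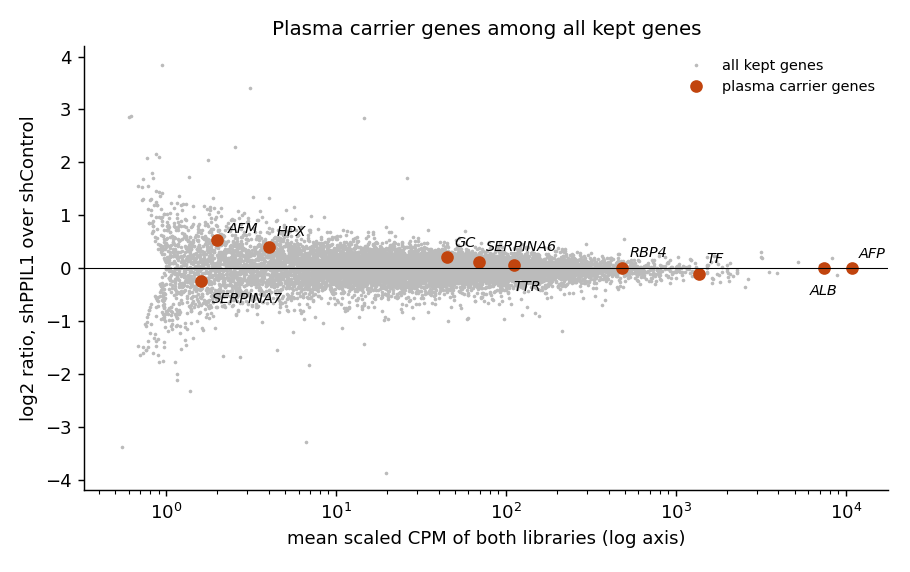
Log2 ratio, shPPIL1 over shControl, against the mean scaled CPM of both libraries (log axis) for all 12540 kept genes (grey) and the 10 carrier genes (orange). The carriers span the range of abundance, and the spread of ratios narrows to the right.

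Some other plasma binding proteins of liver reached 1.5-fold. Of 20 listed, 13 were kept, of which 3 were higher and 6 lower by the interval (median log2 ratio -0.11). A difference of 1.5-fold was reached by 1 of the higher and 3 of the lower genes. Over all kept genes, 24.6% were higher and 26.4% lower by the interval, and 2.02% and 2.22% at 1.5-fold. HP and SHBG, 2 of the 4 listed genes at 1.5-fold, passed the filter only through the library where they were high. A difference was thus needed for them to be counted. CP, the copper-carrying ferroxidase that loads iron onto transferrin, had 3688 reads in shControl and 2423 in shPPIL1, a ratio of 0.645 (0.613 to 0.680). IGFBP1, which binds insulin-like growth factors in plasma, had 168 and 53 reads, and its ratio was 0.310 (0.223 to 0.424). The sex hormone carrier SHBG, with 63 and 36 reads, was the third. HP, haptoglobin, which binds free hemoglobin, had 39 and 68 reads, a ratio of 1.71 (1.14 to 2.61). Its near-identical neighbour HPR had 19 and 2 reads, and the sum of both gave 1.19 (0.825 to 1.71), so the row of HP is uncertain. AMBP, the precursor of the heme- and retinol-binding alpha-1-microglobulin, was the most abundant of the list at 1534 FPKM, with a ratio of 1.04 (1.03 to 1.05). In the SERPINA list, 8 of 9 genes were in the table and 5 were kept; 2 were higher, SERPINA1 and SERPINA3 (1.08, 1.01 to 1.15), and 0 lower, with a median of 0.04.

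Of 16 listed receptors and uptake genes for these carriers and their cargo, 9 were kept. By the interval 5 were higher and 2 lower (median 0.16), beside 24.6% and 26.4% of all kept genes. FCGRT, the receptor that returns albumin from endosomes to plasma, had a ratio of 1.11 (1.04 to 1.19), and its light chain B2M, the most abundant of the list at 901 FPKM in shControl, 1.118 (1.102 to 1.134). CUBN, an endocytic receptor for albumin, transferrin and the vitamin D carrier, had 98 and 168 reads, a ratio of 1.68 (1.31 to 2.18). SLC16A10, an aromatic amino acid and thyroid hormone transporter, had a ratio of 1.26 (1.18 to 1.35). The 2 lower genes were the transferrin receptor TFRC (0.9496, 0.9365 to 0.9629) and the hemopexin receptor LRP1 (0.952, 0.922 to 0.982). TFR2, the hepatic transferrin receptor, had 29 and 35 reads, and STRA6, the RBP4 receptor, 4 and 0 reads.

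Genes that handle the iron and heme cargo were divided. Of 17 kept, 6 were higher and 5 lower by the interval, with a median log2 ratio of 0.0025. The shares over all kept genes were 24.6% higher and 26.4% lower. HMOX1, which breaks down heme, had a ratio of 1.30 (1.26 to 1.34), and SLC40A1, the iron exporter ferroportin, 1.25 (1.20 to 1.31). SLC46A1, a folate and heme transporter, had a ratio of 0.795 (0.733 to 0.862), and IREB2, an iron-sensing RNA-binding protein, 0.925 (0.902 to 0.949). FTL, the ferritin light chain, was the most abundant at 5693 FPKM and had a ratio of 1.09 (1.08 to 1.09); processed copies of ferritin genes in the genome make its count less certain. Among 16 kept genes of retinoid, thyroid hormone, glucocorticoid and vitamin D response, 7 were higher and 3 lower (median 0.05). The same shares of all kept genes, 24.6% and 26.4%, apply here. CYP26A1, the retinoic acid hydroxylase, had 640 and 1051 reads, a ratio of 1.61 (1.46 to 1.78), while the ratio of RBP4 was 1.00. RXRA, the partner of the retinoic acid, thyroid hormone and vitamin D receptors, had a ratio of 1.23 (1.17 to 1.30). The thyroid hormone receptor gene THRA had a ratio of 0.777 (0.714 to 0.844), in a locus that overlaps NR1D1 on the opposite strand, and the glucocorticoid-induced TSC22D3 0.829 (0.740 to 0.929). CYP27A1, a mitochondrial sterol and vitamin D hydroxylase, had the highest level of the list, 53.7 FPKM in shControl, and a ratio of 1.08 (1.03 to 1.12).

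All 21 listed liver transcription factors and AFP repressors were kept. By the interval 12 were higher and 4 lower, with a median log2 ratio of 0.09, and none of the 21 reached 1.5-fold. Over all kept genes 24.6% were higher and 26.4% lower by the interval, a rule that follows depth. At 100 CPM or more, 743 of 2449 genes were higher and 989 lower. Whether the list differs from these was not tested. HNF4A and CEBPA had ratios of 1.06 (1.04 to 1.08) and 1.09 (1.07 to 1.11), and CEBPA had the highest level of the list at 178 FPKM. GATA4 and SALL4, the latter a fetal stem cell factor, had ratios of 1.26 (1.22 to 1.30) and 1.28 (1.20 to 1.37). ZHX2 and ZBTB20 are known as postnatal repressors of AFP. ZHX2 had a ratio of 0.809 (0.771 to 0.848) and ZBTB20 1.06 (1.00 to 1.11), beside 0.997 for AFP. The plot of related lists shows the spread of each list around its median.

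**Figure D5:**
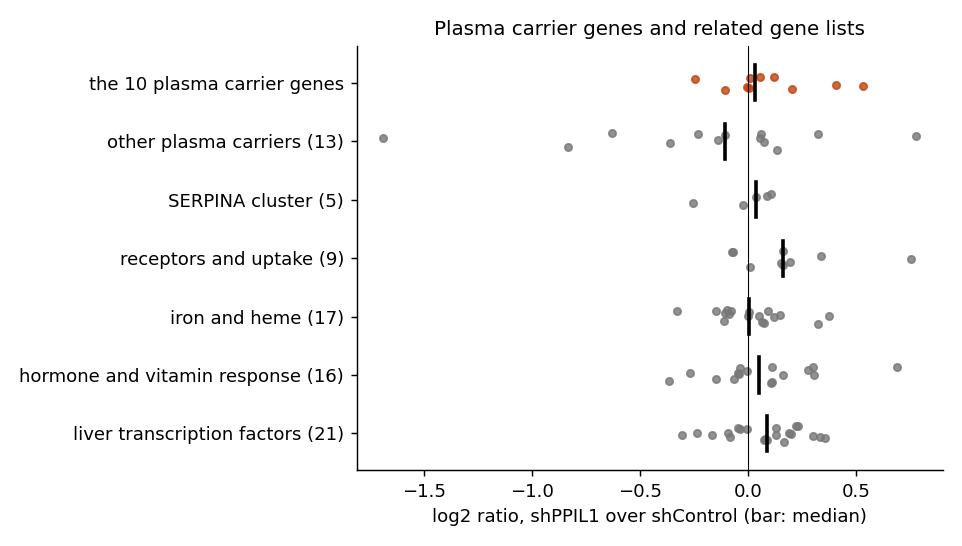
Log2 ratio, shPPIL1 over shControl, of each kept gene in the 10 carriers and in 6 related lists (number kept in brackets), with a bar at each median; points are shifted up or down at random for legibility. Medians run from -0.11 (other plasma carriers) to 0.16 (receptors and uptake), with 0.03 for the 10 carriers.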

How the data were processed

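Whole-number read counts and FPKM values, 1 of each per gene and library, are the values that the authors deposited. They used hg38, per the submitters' processing notes. Their aligner, counter, annotation and strand setting are not stated in the labels. Columns were tied to libraries by the column names in the labels, and 7 further columns of counts whose names match no label were used in no step. Count, total and deposited FPKM gave a whole-number gene length (tolerance 0.001 bases) for 99.9% of detected genes.

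Libraries were scaled with TMM factors (0.993 for shControl, 1.01 for shPPIL1; edgeR 4.0.16, R 4.3.3), and genes with at least 1 scaled CPM in either library were kept. Ratios carry exact 95% Clopper-Pearson intervals on the reads of a gene (SciPy 1.17.1); the step was tested on simulated data. A gene was called when its ratio reached 1.5-fold with an interval excluding 1. Positions and promoters came from RefSeq (GRCh38.p14) and transcripts from GENCODE release 29. Of the gene rows, 19811 of 19927 matched a RefSeq symbol. Near-identical sequence was sought by exact 100-base windows every 10 bases of the longest coding transcript.

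The members, lists and tests were chosen with earlier results of these data known. The genes named are the 10 members, PPIL1, fixed receptors and regulators, neighbouring genes, the most abundant gene of each related list and up to 2 higher and 2 lower genes of each with the most extreme interval bounds. CD68, PECAM1, LUM, COL3A1, EPCAM, KRT19, SOX9, SPP1, HPR, SHBG and SRPRB were named after their values were seen. Some genes of the lists, counted in them, are not reported here by name.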

Additional observations from a re-analysis of the deposited data

How the results depend on the processing

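Scaling by library totals (with or without the members' own reads), DESeq2 1.42.0 size factors or upper-quartile factors left 0 members at 1.5-fold. A threshold of 2-fold and the other filters also gave 0, but that was fixed in advance. All 10 members had passed the filter of 1 CPM, so these settings could not raise the count. At 1.1-fold 3 members passed, and 6 passed by an interval excluding 1 alone. The median log2 ratio of the members stayed within the median bounds of their intervals under all 10 alternatives, and so did the 6 list medians under 2 scalings each. Those bounds are medians of the genes' own limits, not an interval for the median. The scalings shifted all genes by up to 0.0205 on the log2 scale, far less than the width of the bounds. For the scalings, staying inside was thus close to fixed in advance, and without a filter the members were the same 10. Of 60 alternative values for single members, 46 lay within the gene's interval and 14 outside it, all of them for ALB, AFP or TF, whose intervals are narrow. By library totals 7 members were higher by the interval, AFP and TTR added, and by upper-quartile factors 6, TTR added. Background shares at 1.5-fold were 3.56% higher and 3.38% lower without a filter, 0.615% and 0.941% at 5 CPM, and 0% and 0.490% at 100 CPM. In the shControl order of levels 5 members changed place by raw reads and 4 by coding length, an alternative chosen after seeing the data. Without the 13 mitochondrial genes in the total, the members took 2.07% of reads in shControl and 2.10% in shPPIL1. No paired analysis was possible because each group has 1 library, and no library could be left out. Depth limits AFM, SERPINA7 and HPX, with 61 to 190 reads a library.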

Other observations

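The genes next to the carriers differed in both directions by the interval. Besides other members, 16 protein-coding genes flank the 10 in RefSeq, and 12 of these were kept. By the interval ANKRD17, TRIM3, RAB6B and SERPINA1 were higher, DSG2 was lower and the other kept ones included 1. Over all kept genes 24.6% were higher and 26.4% lower, and whether the neighbours differ from these shares was not tested. TRIM3 and RAB6B reached 1.5-fold, beside 2.02% of all kept genes higher by that much. TRIM3, a ubiquitin ligase gene 7626 bases from HPX on chromosome 11, had 217 reads in shControl and 342 in shPPIL1, a ratio of 1.55 (1.30 to 1.84), beside 1.32 for HPX. APBB1, on the other side of HPX, had a ratio of 1.04 (0.975 to 1.11). RAB6B, a small GTPase gene 27594 bases from TF, had 31 and 64 reads, a ratio of 2.03 (1.30 to 3.22). It passed the filter only through shPPIL1, where it was high. TOPBP1, next to the upstream RefSeq start of TF, had a ratio of 1.00 (0.971 to 1.03). The desmoglein gene DSG2, next to TTR, had a ratio of 0.886 (0.845 to 0.929), and B4GALT6, on its other side, 0.907 (0.817 to 1.01). NPFFR2, beyond GC, had 18 and 4 reads and was not kept, and SLC4A4 had 81 and 79 reads. PDE6C, beyond RBP4, had 26 and 17 reads. NRK and PWWP3B, on either side of SERPINA7, had 27 and 26 reads and 42 and 53 reads.

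All 9 hepatocyte markers outside the members were higher by the interval, with log2 ratios from 0.03 (APOB) to 0.36 (FGA). Of the 5 kept cholangiocyte markers, 1 was higher and 3 lower. Over all kept genes, 24.6% were higher and 26.4% lower by that rule, which follows depth. At 100 CPM or more, 743 of 2449 genes were higher and 989 lower. The log2 ratios of the 10 members ran from -0.24 (SERPINA7) to 0.53 (AFM), with a median of 0.03. Whether these sets differ was not tested, since each group has 1 library.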
